A study of Mus musculus with 40 samples.

Results

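The BCL2 family decides whether a stressed or deprived cell releases the contents of its mitochondria and dies. The 10 members followed here, given by their symbols, are Bcl2, Bcl2l1, Mcl1, Bcl2l11, Bbc3, Pmaip1, Bax, Bak1, Bid and Bad. Every probe that the annotation of the array platform assigns to one of these symbols was taken, which gave 28 of the 45281 probes and 9 of the 10 genes. Bax has no listed probe and was not analysed here. Of the 28 probes 21 were detected often enough to be kept, and each of the 9 genes had at least 1. They were tested among 10730 genes.

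Bcl2, Bcl2l1 (which encodes BCL-XL) and Mcl1 are guardians that hold the killers of the family in check. Bax and Bak1 encode the killers, which open the outer mitochondrial membrane. Bcl2l11 (BIM), Bbc3 (PUMA), Pmaip1 (NOXA), Bid and Bad encode BH3-only proteins, which sense stress and either block the guardians or switch on the killers. In T cells BIM is known for ending responses when cytokine is withdrawn and for deleting self-reactive cells, PUMA and NOXA are classic targets of p53, and BCL-XL and MCL1 keep activated T cells alive.

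The measurements were made on Illumina bead arrays with RNA from T cell cultures started from naive CD4+ CD62L+ cells of C57BL6 mice aged 8 to 12 weeks. The mice were wild type (WT) or Malt1-/-, that is, without the scaffold and protease that carries antigen receptor signals to NF-kappaB. The cells came from lymph nodes and spleens and were driven towards Th1 or Th17, the helper lineages that make interferon gamma and interleukin 17. Arrays were taken at 48 h and 72 h, giving 8 groups of 5: WT Th17, Malt1-/- Th17, WT Th1 and Malt1-/- Th1, each at both times. Malt1 was absent in the whole animal as far as the labels state, so the cells had lacked it before they were induced. The stimulus of the cultures is not stated in the labels, and no untreated naive cells are among the 40 arrays. No label tells whether replicates were separate animals or cultures, so a p-value here sets a difference against the spread of these arrays, which may be purely technical.

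Levels below are normalised signals on the log2 scale, and a difference of 1 is a 2-fold difference. Differences come from 1 limma fit of all 40 arrays and carry the standard error (SE) of that fit. A gene was called when its p, adjusted by Benjamini-Hochberg over the 10730 genes of a comparison, was under 0.05. A level is compared only between groups and never between probes. The number of arrays limits the precision.

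Between 14640 and 17409 probes were detected per array, and the raw median signal ran from 127.1 to 193.3. The log2 difference of Malt1 itself between Malt1-/- and WT was -3.85 and -4.75 in Th17 and -4.10 and -4.92 in Th1 cells at 48 h and 72 h (SE 0.30 each). A set of 10 arrays had profiles closer to another group than to their own, by correlation with group means over the kept probes: WT Th17 48 h replicate 5, WT Th17 72 h replicates 2, 4 and 5, Malt1-/- Th17 72 h replicates 2 and 4, WT Th1 48 h replicate 1, WT Th1 72 h replicate 4, and replicate 2 of Malt1-/- Th1 at both times. Each array was left out of the mean of its own group, which then held fewer arrays than the other means. All 10 were kept, and where leaving them out changes the call of a member the value without them is given too. They were picked from their profiles, so leaving them out draws the groups apart by construction. Of the 6 T cell markers with a probe, 5 were detected on all 5 arrays of every group, and Cd5 was not. The summed signal of 3 Th17 markers was 23480 to 26319 in WT and 5058 to 14827 in Malt1-/- Th17 cells at 48 h. At 72 h it was 15353 to 25849 and 3103 to 7413. That of 4 Th1 markers overlapped between the genotypes in Th1 cells at both times. The part of the lower Th17 marker signal in the results on Th17 cells was not tested. The summed signal of 8 myeloid markers was 140 to 240 in WT and 218 to 1874 in Malt1-/- Th17 cells at 48 h, and 107 to 258 and 460 to 6064 at 72 h. Of these 8 markers 5 were detected on at least 1 array in each Malt1-/- Th17 group, while Itgam, Cd14 and Csf1r were detected on none. In Malt1-/- Th17 cells 1 was detected on all 5 arrays at 48 h and 4 at 72 h. In WT Th17 cells 3 were detected on at least 1 array at 48 h and 5 at 72 h, and 1 on all 5 arrays at each time. S100a8, which encodes a neutrophil calcium-binding protein, was higher in Malt1-/- Th17 cells by 2.30 at 48 h and 4.50 at 72 h (limma adjusted p = 0.028 and 1.8e-05). At 72 h its partner S100a9 (3.46) and the lysozyme gene Lyz1 (2.48) were higher too (limma adjusted p = 0.00012 and 4.3e-05), and Lyz2 differed by 0.66 (0.15). The part of myeloid cells, if any were present, in the results on Th17 cells was not tested.

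**Figure D1:**
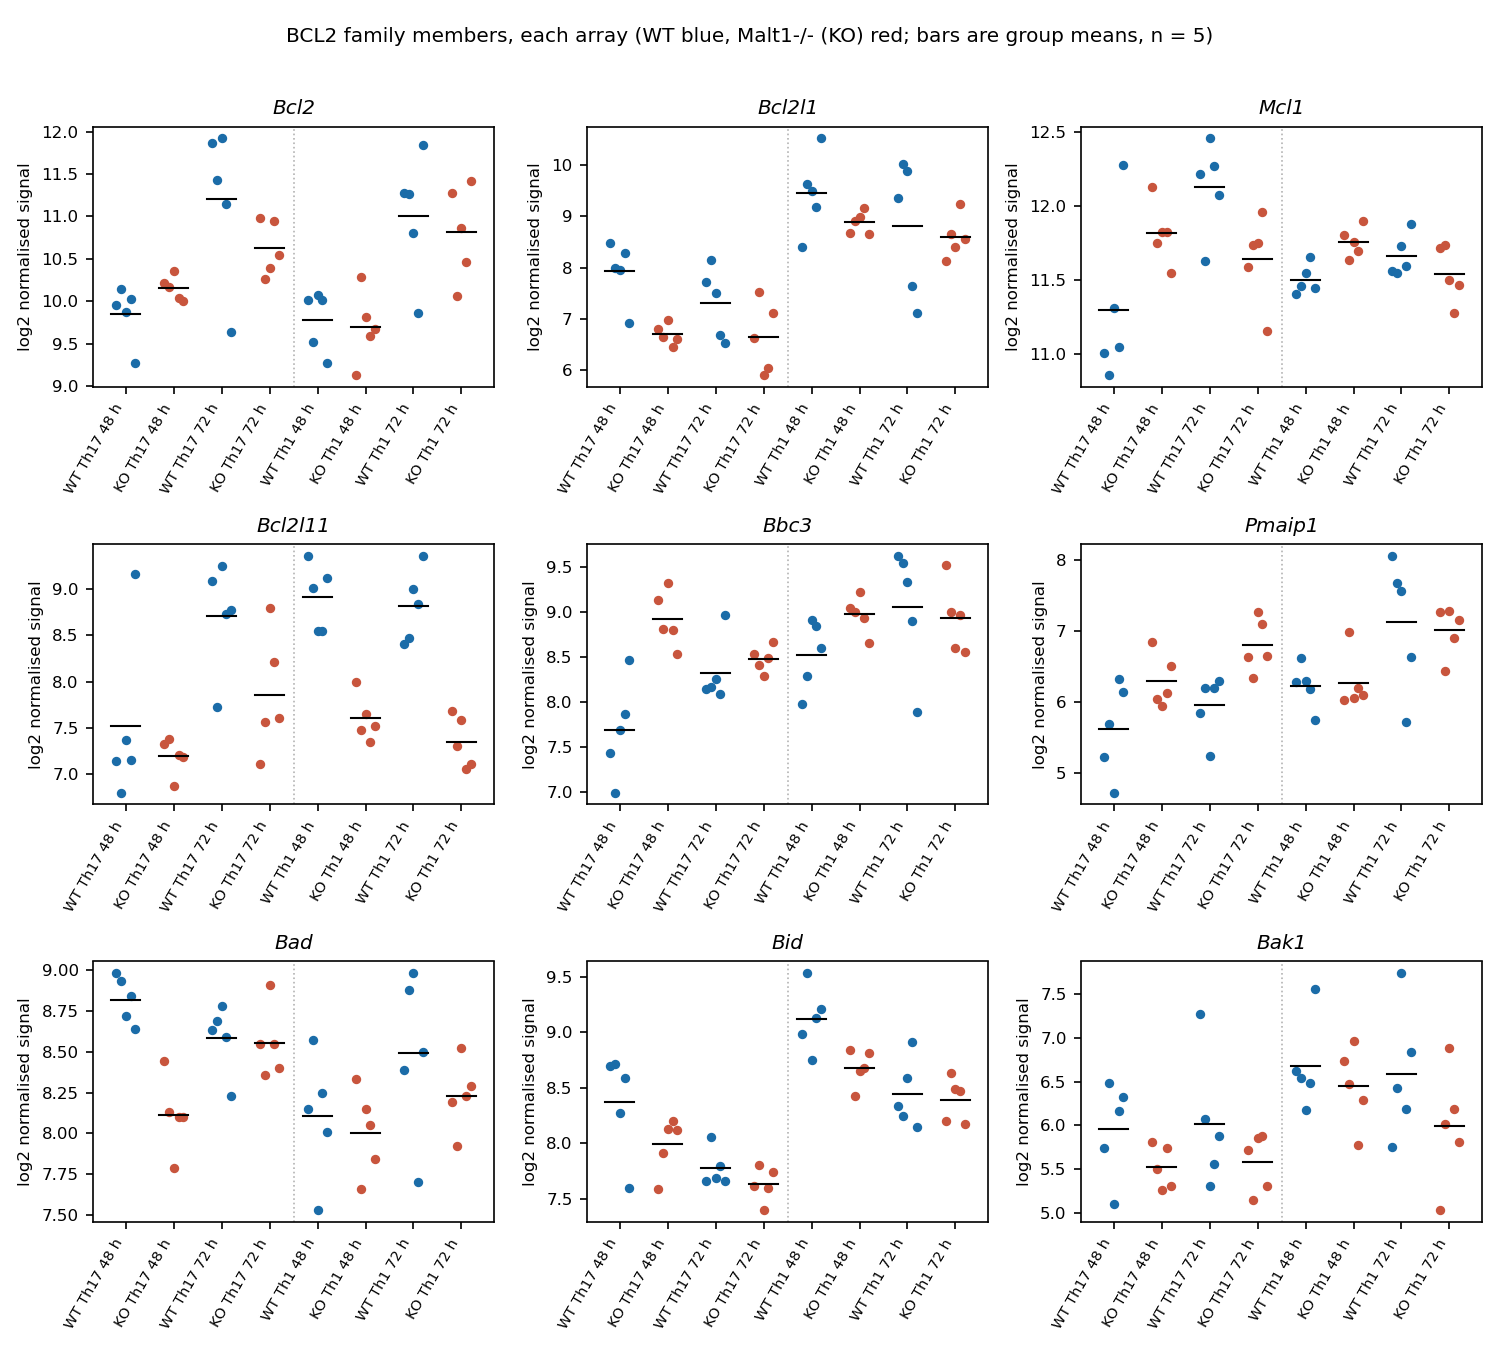
Log2 normalised signal of the 9 measured members on each of the 40 arrays, with 5 points and a bar for the mean in each of the 8 groups, WT in blue and Malt1-/- (KO) in red. The 5 Malt1-/- values of Bcl2l11 lie below all WT values in Th1 cells at both times, and those of Bbc3 lie above all WT values in Th17 cells at 48 h.

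Cells without Malt1 had lower Bcl2l11 under Th1 conditions and, under Th17 conditions at 48 h, higher Bbc3 and lower Bad. These were 4 called differences out of 36, over 9 members and 4 comparisons of Malt1-/- with WT, where 3.74% of all genes were called. By comparison the calls were 2 of 9 in Th17 cells at 48 h (6.38% of all genes), 0 of 9 in Th17 cells at 72 h (4.42%), 1 of 9 in Th1 cells at 48 h (1.39%) and 1 of 9 in Th1 cells at 72 h (2.77%). With 9 genes, 1 or 2 calls are few, and no more is read from these counts. In bulk RNA, a change in the number of cells of one kind and a change in RNA per cell cannot be told apart. Beside the 0 calls in Th17 cells at 72 h, 3 of the 9 members had an unadjusted p under 0.05. The share of all genes at that unadjusted threshold was not computed, so this count has no background beside it.

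Bcl2l11, the gene of BIM, was the member most affected in Th1 cells. At 48 h its levels in WT Th1 cells were 9.36, 9.01, 8.55, 8.55 and 9.12, and in Malt1-/- Th1 cells 8.00, 7.48, 7.65, 7.35 and 7.52. The groups did not overlap. Bcl2l11 was 2.49-fold lower without Malt1 (log2 difference -1.31, SE 0.31, n = 5 per group, limma adjusted p = 0.018). At 72 h the levels in WT Th1 cells were 8.41, 8.47, 9.0, 8.84 and 9.36, against 7.68, 7.30, 7.59, 7.06 and 7.11 in Malt1-/- Th1 cells. Every Malt1-/- array again lay below every WT array, and the difference was 2.77-fold (-1.47, SE 0.31, limma adjusted p = 0.0042). The 48 h call was lost without WT Th1 replicate 2 or 5 or Malt1-/- Th1 replicate 4, with limma adjusted p-values of 0.051, 0.062 and 0.057.

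In Th17 cells Bcl2l11 did not pass at either time. At 48 h the WT levels were 7.14, 6.80, 7.37, 7.15 and 9.16 and the Malt1-/- levels 7.32, 7.38, 6.87, 7.21 and 7.19. All were low except WT replicate 5, 1 of the 10 arrays closer to another group, and the difference was -0.33 (SE 0.31, limma adjusted p = 0.57). Without that array it was 0.08. At 72 h the WT levels were 9.09, 7.73, 9.25, 8.73 and 8.77 and the Malt1-/- levels 7.11, 7.56, 8.80, 8.21 and 7.61. The groups overlapped, with a difference of -0.86 (SE 0.31, limma adjusted p = 0.099). It was -1.10 without WT replicate 2 (limma adjusted p = 0.029), -1.09 without Malt1-/- replicate 3 (0.044) and -1.33 without the 10 arrays (0.0057).

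The 3 kept Bcl2l11 probes pointed the same way in all 4 comparisons with WT, with smaller Th1 differences for the probes detected on fewer arrays. In Th1 cells at 72 h the probe ILMN_2590638 differed by -0.97 (SE 0.25, limma adjusted p = 0.033 over all kept probes), and ILMN_1229255 by -0.63 (limma adjusted p = 0.19). At 48 h they differed by -0.60 and -0.75 and did not pass (limma adjusted p = 0.36 and 0.15). Of all kept probes, 4.57% and 2.76% were called in Th17 cells and 0.94% and 1.77% in Th1 cells at 48 h and 72 h. ILMN_1229255 was detected on 19 of the 40 arrays and ILMN_2590638 on 38, while the probe that stands for the gene, ILMN_3157568, was detected on all 40.

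Bbc3, the gene of PUMA, was higher without Malt1 in Th17 cells at 48 h. WT Th17 levels were 7.43, 6.99, 7.68, 7.86 and 8.46 and Malt1-/- Th17 levels 9.13, 8.81, 9.32, 8.80 and 8.53. The lowest Malt1-/- array lay just above the highest WT array, which was again replicate 5. The difference was 2.35-fold (1.23, SE 0.26, limma adjusted p = 0.0044), and 1.43 without that replicate. At 72 h in Th17 cells the difference was 0.15 (SE 0.26), and in Th1 cells 0.45 at 48 h and -0.13 at 72 h, none of them called. The 48 h call rests on 1 of 3 kept probes, ILMN_2920736, detected on all 40 arrays. The others, ILMN_2690620 and ILMN_2690621, were detected on 33 and 34 arrays and differed by 0.26 and -0.15, and the mean of the 3 probes gave 0.45 (limma adjusted p = 0.079).

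Bad, whose protein blocks BCL2 and BCL-XL until survival kinases phosphorylate it, was lower without Malt1 in Th17 cells at 48 h. WT levels were 8.98, 8.93, 8.72, 8.84 and 8.64, against 8.44, 8.13, 7.79, 8.10 and 8.10 in Malt1-/- cells. The groups did not overlap and Bad was 1.63-fold lower (-0.71, SE 0.18, limma adjusted p = 0.021). The call depended on the scaling of the arrays: scaling by medians moved the median of all genes up by 0.25 in this comparison and gave Bad -0.40 (limma adjusted p = 0.28). It was also lost without WT replicate 1 (limma adjusted p = 0.056) or Malt1-/- replicate 3 (0.065). The differences at 72 h in Th17 cells and in Th1 cells at 48 h and 72 h were -0.03, -0.10 and -0.26, and none was called.

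**Figure D2:**
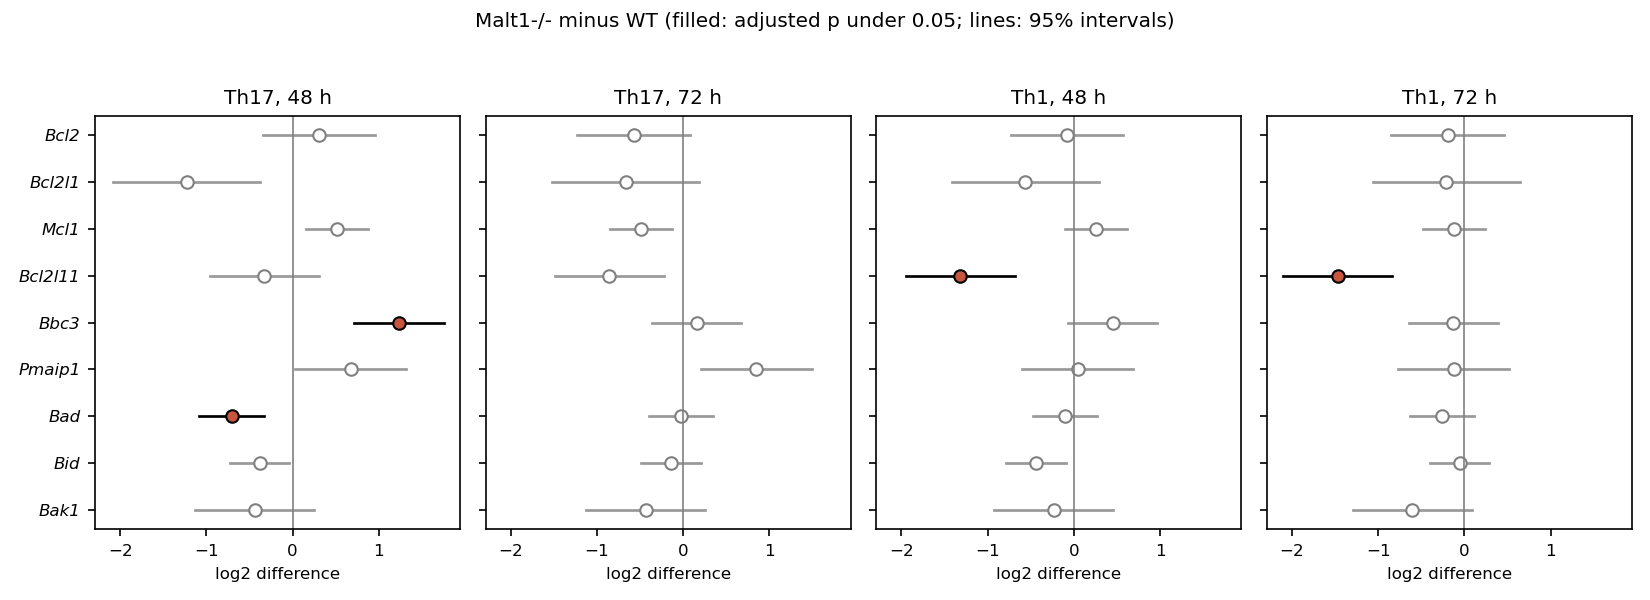
Log2 difference of Malt1-/- minus WT for each member, in 1 panel per lineage and time, with 95% intervals from the limma fit and filled points for adjusted p under 0.05. Filled points stand at Bbc3 (1.23) and Bad (-0.71) in Th17 cells at 48 h and at Bcl2l11 in Th1 cells at 48 h (-1.31) and 72 h (-1.47).

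Pmaip1, the gene of NOXA, was not called in any of the 4 comparisons with WT. In Th17 cells at 72 h the WT levels were 5.84, 6.19, 5.23, 6.20 and 6.29 and the Malt1-/- levels 6.63, 6.33, 7.27, 7.10 and 6.65. The groups did not overlap, by a narrow margin, and the difference was 0.85 (SE 0.32, limma adjusted p = 0.11), or 1.31 without the 10 arrays (limma adjusted p = 0.012). Its second kept probe, ILMN_1245289, had the opposite sign there (-0.30). Pmaip1 and Malt1 lie on the same chromosome, 18, with 17 annotated genes between them in RefSeq's annotation of GRCm38.p6. At 48 h in Th17 cells Pmaip1 differed by 0.67 (limma adjusted p = 0.19), or 0.80 without the 10 arrays (0.041), and in Th1 cells by 0.05 and -0.12 at 48 h and 72 h. Bak1, the killer with a probe, differed by -0.60 to -0.23 over the 4 comparisons, and none was called. Groups without overlap were found for 2, 1, 1 and 1 of the 9 members in Th17 cells at 48 h and 72 h and Th1 cells at 48 h and 72 h, against 10.1%, 3.94%, 4.47% and 2.77% of all genes.

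Among the guardians none was called against WT. Bcl2l1 in Th17 cells at 48 h came closest: the WT levels were 8.48, 8.00, 7.96, 8.29 and 6.93 and the Malt1-/- levels 6.81, 6.65, 6.98, 6.45 and 6.62. Only WT replicate 5 fell into the Malt1-/- range. The difference was -1.23 (SE 0.42, limma adjusted p = 0.069), and -1.48 without that replicate (limma adjusted p = 0.025). The other kept probes of Bcl2l1 differed by -1.16 and -1.28 in the same comparison, and the second of these, ILMN_2647885, passed (limma adjusted p = 0.030 over all kept probes). Mcl1, with a single probe, differed by 0.52 in Th17 cells at 48 h and by -0.49 at 72 h (SE 0.18 each, limma adjusted p = 0.070 and 0.097). The 72 h value was -0.62 without WT Th17 72 h replicate 2 (limma adjusted p = 0.035) and -0.84 without the 10 arrays (0.0014). Bcl2 differences in the 4 comparisons ran from -0.57 to 0.31, each with an SE of 0.32. The lowest, in Th17 cells at 72 h, was -0.97 without WT Th17 72 h replicate 5 (limma adjusted p = 0.032) and -1.25 without the 10 arrays (0.0020).

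Several of these calls changed with the omission of WT Th17 48 h replicate 5. Its Mcl1 level was 12.28, against 11.01, 10.86, 11.31 and 11.05 on the other 4 arrays of its group and 12.13, 11.75, 11.83, 11.83 and 11.55 in Malt1-/- Th17 cells. Without it, Mcl1 was 0.76 higher without Malt1 (limma adjusted p = 0.0013). Bid, whose Th17 difference at 48 h was -0.38 (SE 0.17, limma adjusted p = 0.17), then differed by -0.58 (limma adjusted p = 0.017). With replicate 5 kept, Mcl1 passed with median scaling (0.78, limma adjusted p = 0.036) and array weights (0.62, 0.0011). Bcl2l1 passed with array weights (-1.44, limma adjusted p = 0.0015) and only the arrays of the comparison (-1.23, 0.011). Bid passed with array weights (-0.45, limma adjusted p = 0.013). No other setting that kept the array gave these members a call there. Without that replicate the number of called member differences against WT was 9 of 36. The share of all genes called in that setting was not computed, so the count has no background beside it. Without all 10 arrays closer to another group the number was 12 of 36, while the share of all genes called also rose, from 3.74% to 11.6%.

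**Figure D3:**
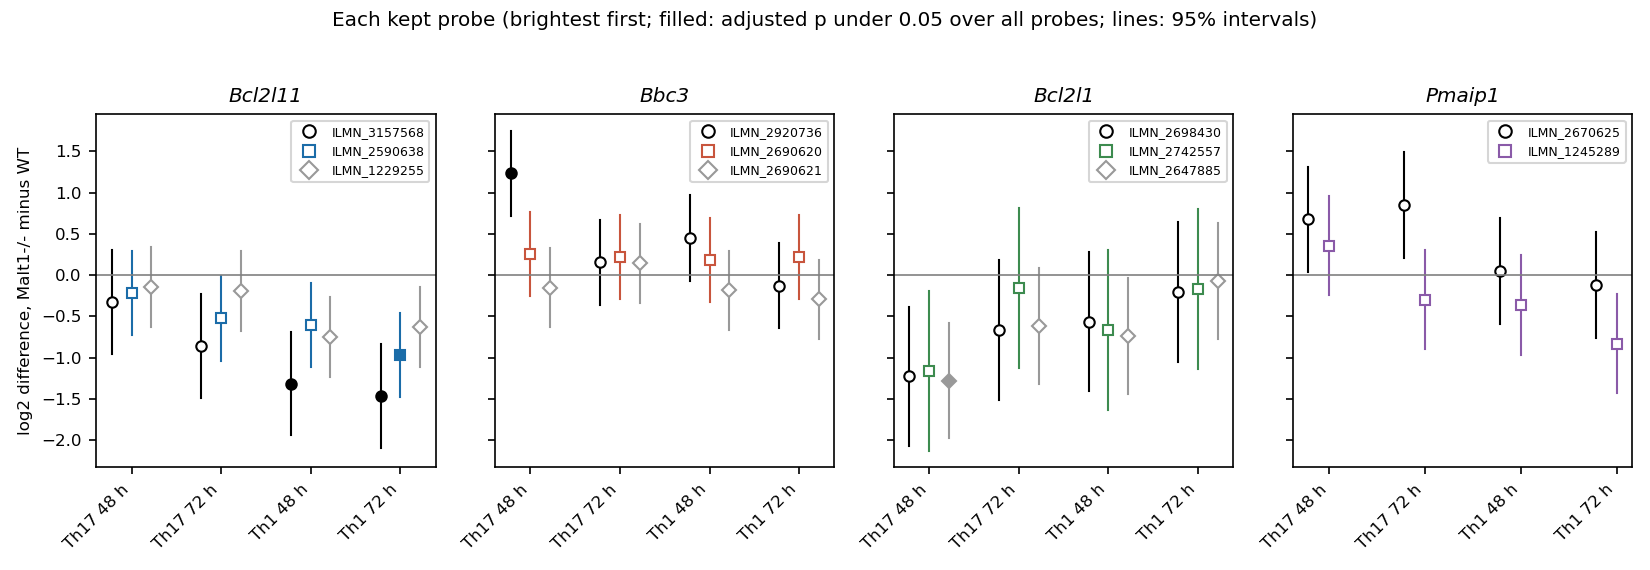
Log2 difference of Malt1-/- minus WT for every kept probe of Bcl2l11, Bbc3, Bcl2l1 and Pmaip1 in each lineage and time, with 95% intervals and filled symbols for adjusted p under 0.05 over all kept probes. The Bcl2l11 and Bcl2l1 probes lie below 0 in all 4 comparisons, whereas in Th17 cells at 48 h the Bbc3 probes differ by 1.23, 0.26 and -0.15.

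The promoter windows shown are those of the members that hold a match to a FOXO or kappaB motif. FOXO and NF-kappaB factors are known regulators of BIM, PUMA and BCL-XL. Windows without such a match are not shown, among them those of Bid and Bad. RefSeq windows on GRCm38.p6, from 250 bases before to 50 after a gene start, were found for 9 of the 10 members, 15 windows in all. They were searched on both strands for the FOXO core GTAAACA, the STAT motif TTCNNNGAA, the kappaB motif and the p53 half-site. Of 32851 windows of the same length, 3.65% held the FOXO core, 8.3% the STAT motif, 8.46% the kappaB motif and 8.36% the p53 half-site. Bcl2l11 window 1 (chr2:128125788-128126087, plus strand) holds the FOXO core 227 to 221 bases before the gene start. Bbc3 window 2 (chr7:16310011-16310310, plus strand) holds it on the opposite strand, 167 to 161 bases before. Bbc3 window 1 (chr7:16309333-16309632, plus strand) holds overlapping matches of the kappaB motif, and Bcl2l1 window 2 (chr2:152830668-152830967, minus strand) holds 1. The only other match among the 15 windows was a p53 half-site in the window of Bax. Each sequence runs 5′ to 3′ along the gene, and the capitals mark the matched letters.
Bcl2l11 window 1: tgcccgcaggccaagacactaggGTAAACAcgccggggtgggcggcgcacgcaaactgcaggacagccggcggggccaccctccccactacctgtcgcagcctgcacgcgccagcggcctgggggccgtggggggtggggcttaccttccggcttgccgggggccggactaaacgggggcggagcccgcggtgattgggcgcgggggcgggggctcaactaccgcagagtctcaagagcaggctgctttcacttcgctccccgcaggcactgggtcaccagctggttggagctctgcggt
Bbc3 window 1: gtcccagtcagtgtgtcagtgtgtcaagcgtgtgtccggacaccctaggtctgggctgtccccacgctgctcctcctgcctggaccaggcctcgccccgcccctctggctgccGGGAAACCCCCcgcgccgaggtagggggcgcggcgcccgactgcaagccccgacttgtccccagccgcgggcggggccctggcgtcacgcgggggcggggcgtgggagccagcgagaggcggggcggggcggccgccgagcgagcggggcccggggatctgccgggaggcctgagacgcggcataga
Bbc3 window 2: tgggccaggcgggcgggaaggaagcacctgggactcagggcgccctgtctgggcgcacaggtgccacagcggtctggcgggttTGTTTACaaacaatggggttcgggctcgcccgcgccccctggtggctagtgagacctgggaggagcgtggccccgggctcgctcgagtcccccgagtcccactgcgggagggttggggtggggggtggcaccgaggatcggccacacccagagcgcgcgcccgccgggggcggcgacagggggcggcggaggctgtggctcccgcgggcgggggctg
Bcl2l1 window 2: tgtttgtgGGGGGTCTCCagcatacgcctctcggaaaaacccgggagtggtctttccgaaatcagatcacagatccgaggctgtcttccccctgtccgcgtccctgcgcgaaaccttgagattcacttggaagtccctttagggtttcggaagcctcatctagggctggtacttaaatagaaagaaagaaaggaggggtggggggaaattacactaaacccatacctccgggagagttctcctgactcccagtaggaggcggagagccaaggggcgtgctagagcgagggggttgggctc
A match is a description of these letters, and no binding was measured.

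Th17 cells differed from Th1 cells mainly by lower Bcl2l1 and Bid, in both genotypes and at both times. Over 9 members and 4 comparisons 13 of 36 differences were called, 12 of them lower in Th17 cells, where 18.9% of all genes were called in either direction. The shares of all genes called lower in Th17 cells were 7.26%, 9.2%, 8.72% and 9.16% in WT cells at 48 h and 72 h and Malt1-/- cells at 48 h and 72 h. In WT cells 5 of 9 members were called at 48 h (17.5% of all genes) and 4 of 9 at 72 h (18.9%). In Malt1-/- cells 2 of 9 were called at each time (18.6% and 20.8%), which is close to the background. The 4 comparisons share no arrays with each other, but each uses groups that also entered the comparisons of genotype.

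Bcl2l1, which encodes the guardian BCL-XL, spanned the widest range of group means of all members, 2.79, wider than 97.3% of the genes tested. At 48 h the levels in WT Th1 cells were 8.40, 9.62, 9.49, 9.17 and 10.51, against the WT Th17 levels given above. The groups overlapped by a single pair of arrays, and Bcl2l1 was 2.84-fold lower in Th17 cells (-1.51, SE 0.42, limma adjusted p = 0.0098). In Malt1-/- cells at 48 h the Th1 levels were 8.67, 8.91, 8.98, 9.16 and 8.65, all above the Th17 levels. The difference was 4.51-fold (-2.17, SE 0.42, limma adjusted p = 0.00019).

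At 72 h the Bcl2l1 levels in WT Th17 cells were 7.71, 8.15, 7.51, 6.69 and 6.53 and in WT Th1 cells 9.36, 10.01, 9.88, 7.64 and 7.12. WT Th1 replicates 4 and 5 lay within the Th17 range. The difference was -1.49 (SE 0.42, limma adjusted p = 0.0099), and the call was lost without WT Th1 replicate 2 (-1.19, limma adjusted p = 0.052). It was also lost with only the arrays of the comparison in the fit (limma adjusted p = 0.14). In Malt1-/- cells at 72 h the Th17 levels were 6.64, 7.53, 5.91, 6.04 and 7.12 and the Th1 levels 8.13, 8.65, 8.40, 9.24 and 8.56. These did not overlap (-1.95, SE 0.42, limma adjusted p = 0.0006). All 3 kept probes of Bcl2l1 were called lower in Th17 cells in each of the 4 comparisons, with differences from -2.17 to -1.36. In these comparisons 13.2% and 14.6% of all kept probes were called in WT cells and 15.2% and 16.2% in Malt1-/- cells at 48 h and 72 h.

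Bid, the BH3-only protein that caspase-8 cuts to link death receptors to mitochondria, showed the steadiest contrast. At 48 h the WT Th17 levels were 8.70, 8.71, 8.27, 8.59 and 7.60 and the WT Th1 levels 8.98, 9.53, 8.75, 9.13 and 9.21. At 72 h they were 7.66, 8.06, 7.69, 7.80 and 7.66 in WT Th17 cells and 8.34, 8.25, 8.59, 8.91 and 8.15 in WT Th1 cells. The lineages did not overlap at either time, with differences of -0.75 and -0.67 (SE 0.17 each, limma adjusted p = 0.0016 and 0.0042).

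The same held for Bid without Malt1. Malt1-/- Th17 levels were 7.59, 7.91, 8.13, 8.20 and 8.12 at 48 h and 7.62, 7.81, 7.40, 7.60 and 7.74 at 72 h. Malt1-/- Th1 levels were 8.84, 8.43, 8.65, 8.68 and 8.81 at 48 h and 8.20, 8.63, 8.49, 8.47 and 8.17 at 72 h. Again no Th17 array reached a Th1 array, and the differences were -0.69 and -0.76 (SE 0.17 each, limma adjusted p = 0.0032 and 0.001). Members whose lineages did not overlap numbered 2 and 1 in WT and 2 and 2 in Malt1-/- cells at 48 h and 72 h, against 12.8%, 8%, 22.8% and 16.9% of all genes. With median scaling the 48 h Bid difference in Malt1-/- cells was -0.53 and missed the threshold (limma adjusted p = 0.092). Between groups lay 78.4% of the variance of Bid, the highest share among the members, against a median of 41.1% over all genes.

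**Figure D4:**
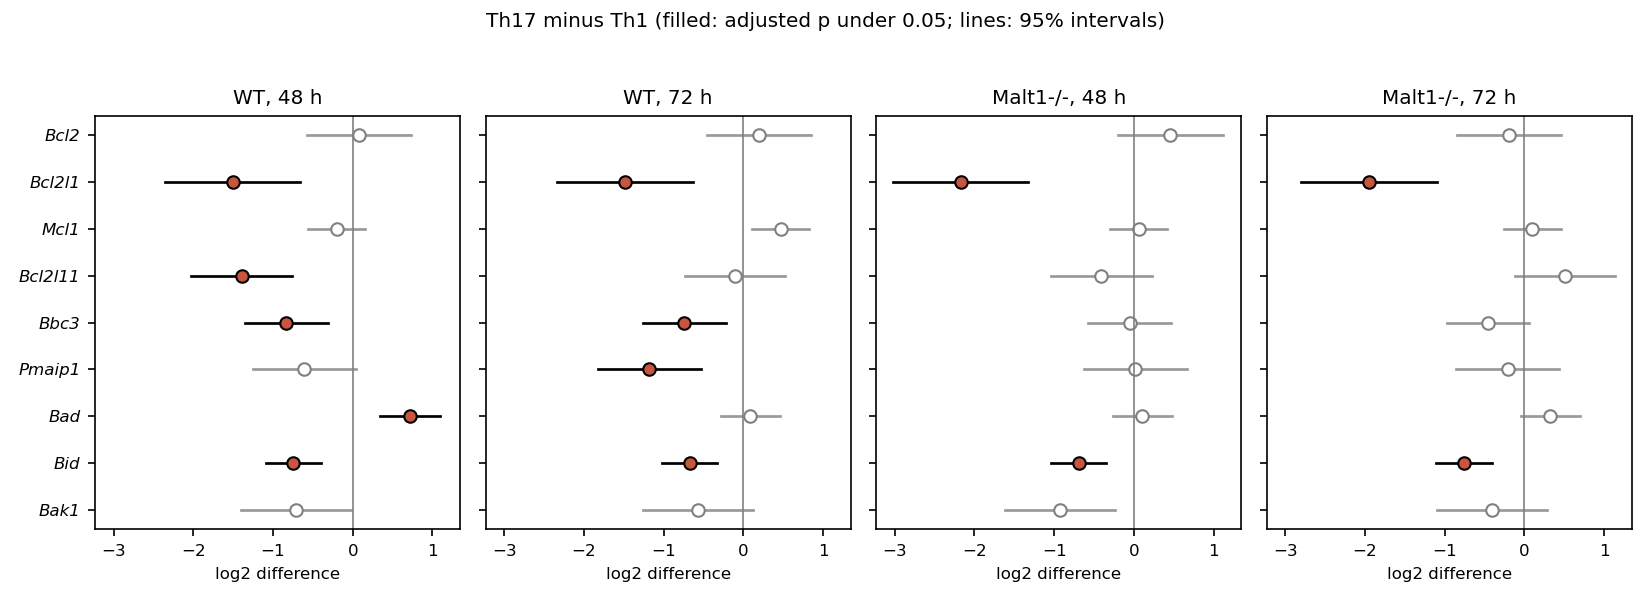
Log2 difference of Th17 minus Th1 for each member, in 1 panel per genotype and time, with 95% intervals from the limma fit and filled points for adjusted p under 0.05. Bcl2l1 (-1.51, -1.49, -2.17 and -1.95) and Bid (-0.75, -0.67, -0.69 and -0.76) are filled in all 4 panels.

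Another 4 members were called between lineages in WT cells only at one or both times, and the difference between genotypes did not pass for any of them. Bcl2l11 was 2.62-fold lower in WT Th17 than in WT Th1 cells at 48 h (-1.39, SE 0.31, limma adjusted p = 0.0012), and -1.80 without WT Th17 replicate 5. At 72 h it differed by -0.10 (SE 0.31, 95% interval -0.73 to 0.53). Bbc3 was lower in WT Th17 cells, with log2 differences of -0.83 at 48 h and -0.74 at 72 h (SE 0.26 each, limma adjusted p = 0.019 and 0.038). Both Bbc3 calls were lost with the mean of its probes and with only the arrays of the comparison (limma adjusted p = 0.058 and 0.20). The 48 h call was also lost without any of 3 single arrays. The 72 h call was also lost with median scaling (limma adjusted p = 0.11), with no detection filter (0.062) and without the 10 arrays (-0.90, 0.067). Leaving out any of 7 single arrays lost the 72 h call too. Bbc3 levels were 7.97, 8.28, 8.91, 8.84 and 8.60 in WT Th1 cells at 48 h.

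Pmaip1 was lower in WT Th17 than in WT Th1 cells at 72 h. WT Th1 levels were 8.06, 7.67, 7.57, 5.72 and 6.63, against the Th17 levels above, and replicate 4 lay inside the Th17 range. The difference was 2.26-fold (-1.18, SE 0.32, limma adjusted p = 0.0067), and the second probe was called there too (-1.04). With only the arrays of the comparison in the fit the Pmaip1 call was lost (limma adjusted p = 0.11). Bad went the other way: it was higher in WT Th17 than in WT Th1 cells at 48 h, where the Th1 levels were 8.15, 8.57, 7.53, 8.25 and 8.01. The groups did not overlap (0.72, SE 0.18, limma adjusted p = 0.005), but with median scaling the difference was 0.47 (limma adjusted p = 0.18). Bak1 had differences from -0.92 to -0.41 in the 4 comparisons, and none passed. The lowest, in Malt1-/- cells at 48 h (limma adjusted p = 0.054), did pass under 4 alternatives, among them array weights (0.0056) and leaving out Malt1-/- Th1 48 h replicate 4 (-1.09, 0.032).

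Bcl2 and Mcl1 had no called difference between lineages. Their differences of Th17 minus Th1 ran from -0.19 to 0.46 and from -0.20 to 0.47. Without WT Th17 48 h replicate 5 the lowest Mcl1 value, in WT cells at 48 h, was -0.45 (limma adjusted p = 0.032), and without the 10 arrays -0.47 (0.017). The highest Bcl2 value, in Malt1-/- cells at 48 h, was 0.60 without the 10 arrays (limma adjusted p = 0.032). The Mcl1 difference in WT cells at 72 h (0.47, SE 0.18, limma adjusted p = 0.060) passed under other settings, among them leaving out WT Th17 72 h replicate 2 (0.59, limma adjusted p = 0.016) and leaving out the 10 arrays (0.66, 0.0060).

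From 48 h to 72 h, Bcl2 was the member that changed in most groups. Of 36 differences over time 7 were called, where 7.37% of all genes were called. The calls were 4 of 9 in WT Th17 cells (12.3% of all genes) and 2 of 9 in WT Th1 cells (10.5%). In Malt1-/- cells they were 1 of 9 in Th1 (5.95%) and 0 of 9 in Th17 cells (0.699%). In Malt1-/- Th17 cells 3 members had an unadjusted p under 0.05, with no share of all genes computed at that threshold.

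Bcl2, the founding guardian, was 2.55-fold higher at 72 h in WT Th17 cells (1.35, SE 0.32, limma adjusted p = 0.0074). Its levels there were 9.95, 10.14, 9.87, 10.03 and 9.27 at 48 h and 11.87, 11.43, 11.92, 11.15 and 9.64 at 72 h. Only replicate 5 stayed in the 48 h range at 72 h. In WT Th1 cells the levels were 10.01, 9.52, 10.07, 10.01 and 9.27 at 48 h and 11.27, 11.26, 10.81, 9.86 and 11.84 at 72 h, a difference of 1.23 (SE 0.32, limma adjusted p = 0.015). Replicate 4 at 72 h was the array that overlapped. This call was lost without WT Th1 48 h replicate 5, 72 h replicate 2 or 72 h replicate 5 (limma adjusted p = 0.055, 0.051 and 0.056).

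In Malt1-/- Th1 cells Bcl2 levels were 9.13, 10.28, 9.82, 9.59 and 9.67 at 48 h and 11.28, 10.06, 10.86, 10.46 and 11.42 at 72 h. The difference of 1.12 (SE 0.32, limma adjusted p = 0.033) was lost without any of 7 single arrays. In Malt1-/- Th17 cells the levels were 10.21, 10.17, 10.36, 10.04 and 10 at 48 h and 10.98, 10.26, 10.39, 10.95 and 10.55 at 72 h, and the difference of 0.47 (SE 0.32, 95% interval -0.18 to 1.12, limma adjusted p = 0.53) did not pass. By the probe that stands for each gene, no member had times without overlap in any group. The shares of all genes were 4.18% and 3.05% in WT Th17 and Th1 cells and 6.37% and 7.61% in Malt1-/- Th17 and Th1 cells. A second Bcl2 probe detected on all 40 arrays, ILMN_1249366, had times without overlap in Malt1-/- Th17 cells. Its levels there ran from 8.49 to 8.78 at 48 h and from 9.44 to 9.62 at 72 h. Overlap is not given for the other Bcl2 probes. Among the 6 kept Bcl2 probes every difference over time was above 0 in all 4 groups, from 0.34 to 1.35.

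In WT Th17 cells the BH3-only gene Bcl2l11 and the guardian Mcl1 were higher at 72 h as well. Bcl2l11 rose by 1.19 (SE 0.31, limma adjusted p = 0.012), and by 1.60 without WT Th17 48 h replicate 5, but the call was lost without WT Th17 72 h replicate 3 (1.06, limma adjusted p = 0.062). The Mcl1 levels at 72 h were 12.22, 11.63, 12.46, 12.27 and 12.08, and the rise was 0.83 (SE 0.18, limma adjusted p = 0.0044), or 1.08 without that array. In Malt1-/- Th17 cells Mcl1 levels at 72 h were 11.59, 11.74, 11.75, 11.96 and 11.16, with a difference over time of -0.18 (SE 0.18). Bid was lower at 72 h in WT cells, with log2 differences of -0.60 in Th17 and -0.67 in Th1 cells (SE 0.17 each, limma adjusted p = 0.021 and 0.013). The Th17 call for Bid was lost with median scaling (-0.50, limma adjusted p = 0.19) and without any of 5 single arrays. Another 3 members passed over time only under alternatives. Pmaip1 differed by 0.91 in WT Th1 and 0.74 in Malt1-/- Th1 cells (limma adjusted p = 0.059 and 0.16), and by 1.27 and 1.06 without the 10 arrays (0.0018 and 0.0096). Bad in WT Th1 cells differed by 0.39 (limma adjusted p = 0.17), and by 0.60 without the 10 arrays (0.016). Bbc3 in WT Th17 cells differed by 0.63 (limma adjusted p = 0.096), and by 0.83 without WT Th17 48 h replicate 5 (0.022). With only the 10 arrays of each comparison in the fit, 1 of the 7 calls over time remained, that of Bcl2 in Malt1-/- Th1 cells.

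**Figure D5:**
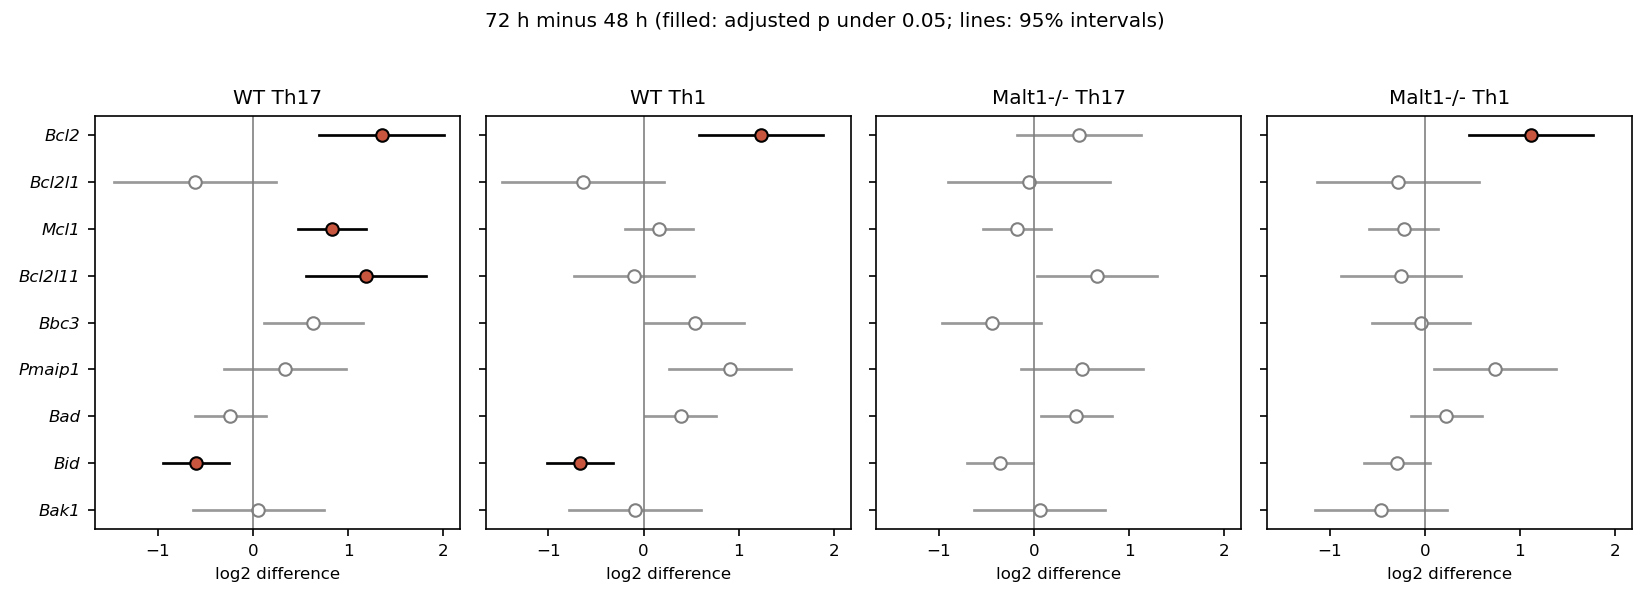
Log2 difference of 72 h minus 48 h for each member, in 1 panel per genotype and lineage, with 95% intervals from the limma fit and filled points for adjusted p under 0.05. Bcl2 is filled in WT Th17 (1.35), WT Th1 (1.23) and Malt1-/- Th1 cells (1.12) and open in Malt1-/- Th17 cells (0.47).

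Whether the effect of Malt1 itself differed between lineages or times was tested by interaction terms, and 0 of 36 were called in limma, where 0.259% of all genes were. Between lineages 0.14% of all genes were called at 48 h and 0.699% at 72 h, and between times 0.121% in Th17 and 0.0746% in Th1 cells. At an unadjusted p under 0.05 there were 7, in 5 members. The share of all genes under that threshold was not computed, so nothing is read from this count. Mcl1 came closest: the difference of Malt1-/- minus WT in Th17 cells was lower at 72 h than at 48 h (-1.01, SE 0.25, limma adjusted p = 0.060). It passed without WT Th17 48 h replicate 5 (-1.26, limma adjusted p = 0.0011), WT Th17 72 h replicate 2 (-1.14, 0.021) or Malt1-/- Th17 72 h replicate 4 (-1.09, 0.036). Array weights (-1.10, limma adjusted p = 0.013) and leaving out the 10 arrays (-1.61, 0.0001) also gave a call. So did no background correction, the authors' value table and an offset of 50 (limma adjusted p = 0.045 each). The other settings and omissions did not. For Bcl2l11 the effect was weaker in Th17 than in Th1 cells at 48 h by 0.98 (SE 0.44, limma adjusted p = 0.41). It passed with array weights (1.23, limma adjusted p = 0.046) but in no other setting run, and was 1.39 without WT Th17 48 h replicate 5 (0.060), so the fall in Th1 cells is not shown to differ from the Th17 value. The change of the lineage difference from 48 h to 72 h, a test chosen after the values had been seen, was not called for any of the 9 members in limma, against 0.00932% of all genes in WT and 0.205% in Malt1-/- cells. For Bcl2l11 in WT cells it was 1.29 (SE 0.44, limma adjusted p = 0.36), and 2.05 without the 10 arrays (limma adjusted p = 0.0071). For Mcl1 in WT cells it was 0.67 (SE 0.25, limma adjusted p = 0.44), and 1.13 without the 10 arrays (limma adjusted p = 0.0051).

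In the order of group means of each member, every pair of neighbouring groups overlapped. The lowest and highest group means were those of Malt1-/- Th17 72 h and WT Th1 48 h for Bcl2l1 and Bid, of WT Th17 48 h and WT Th1 72 h for Bbc3 and Pmaip1, and of Malt1-/- Th17 48 h and WT Th1 48 h for Bcl2l11 and Bak1. Bcl2 was lowest in Malt1-/- Th1 cells at 48 h and highest in WT Th17 cells at 72 h, Mcl1 lowest and highest in WT Th17 cells at 48 h and 72 h, and Bad lowest in Malt1-/- Th1 and highest in WT Th17 cells at 48 h. The range of group means went from 0.82 for Bad to 2.79 for Bcl2l1, against a median of 0.69 over all genes.

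Genes that act with the family were followed in 8 lists. In Th17 cells at 48 h, 3 of 12 tested p53 targets outside the family were higher without Malt1, with 3.41% of all genes higher, and the median of the list was 0.37 against -0.01 for all genes. They were Ccng1, a cyclin G that restrains p53 (0.80, SE 0.17, limma adjusted p = 0.0049), Zmat3, an RNA-binding protein (0.96, SE 0.22, limma adjusted p = 0.011), and Phlda3, an inhibitor of AKT (1.14, SE 0.28, limma adjusted p = 0.017). Of these 3 only Phlda3 was called at 72 h (0.96, limma adjusted p = 0.046), a call lost in 17 of 22 alternatives. Between lineages, 5, 7, 5 and 7 of the 12 were lower in Th17 than in Th1 cells in WT cells at 48 h and 72 h and in Malt1-/- cells at 48 h and 72 h, where the shares of all genes were those given above, and 1, 2, 1 and 2 were higher.

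Of 4 tested NF-kappaB subunits, 2, 1, 1 and 2 were higher without Malt1 in Th17 cells at 48 h and 72 h and in Th1 cells at 48 h and 72 h, and none was lower, against 3.41%, 2.89%, 0.783% and 1.85% of all genes higher. Nfkb2, the precursor of the subunit p52, was higher by 1.11, 1.01 and 0.81 in all but Th1 cells at 48 h. Rela was higher by 0.67 in Th17 cells at 48 h and by 0.57 and 0.59 in Th1 cells, the Th1 calls being lost with median scaling (limma adjusted p = 0.42 and 0.15). The Nfkb2 call in Th1 cells at 72 h was lost in 7 of 22 alternatives, among them array weights (0.69, limma adjusted p = 0.075). Among 11 tested genes of the apoptosome, the caspases and their inhibitors, 1 was called at each Th17 time: Birc3, a ubiquitin ligase that protects from death receptor signals, at 48 h (1.51, SE 0.35, limma adjusted p = 0.011) and Birc5, the mitotic inhibitor survivin, at 72 h (0.50, SE 0.13, limma adjusted p = 0.020), a call lost in 4 of 22 alternatives. None was called in Th1 cells.

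The death receptor list held 9 tested genes. Fas, the receptor whose signal can pass through Bid, was higher without Malt1 in Th17 cells at 48 h (1.10, SE 0.27, limma adjusted p = 0.015). Tnfrsf1b, the second receptor for tumour necrosis factor, was lower in Th1 cells at 48 h (-1.09, SE 0.22, limma adjusted p = 0.0047) and 72 h (-0.92, SE 0.22, limma adjusted p = 0.013). The 72 h call was lost in 7 of 22 alternatives, among them no background correction (-0.28, limma adjusted p = 0.075) and the mean of its probes (-0.48, 0.066). Of 7 tested genes of cytokine and FOXO input only Il4ra, a chain of the interleukin 4 receptor, was called, lower in Th17 cells at 72 h (-1.32, SE 0.28, limma adjusted p = 0.0050). None of 10 genes that control BCL2 proteins by phosphorylation or turnover and none of 8 partners at the mitochondrial membrane was called against WT.

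Of 9 tested relatives of the family, Bcl2l14 was called in Th1 cells at 72 h. Its probe passed detection in 5 of 5 Malt1-/- and in 2 of 5 WT samples, with means of 6.96 and 5.22 (1.74, SE 0.26, limma adjusted p = 2.3e-05). In Th17 cells at 72 h it passed detection in 0 of 5 Malt1-/- and in 1 of 5 WT samples, so an effect there could not be measured.

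By their 8 group means, the genes most like Bcl2l11 were Arhgef6, Mroh8 and Synj2, with Pearson correlations of 0.94, 0.93 and 0.93. For Bbc3 they were Celsr1 (0.97), Lin28a (0.96) and Birc3 (0.96), and for Bad they were Trp53i13 (0.98), Dctn5 (0.97) and Ntan1 (0.97). Correlations over 0.9 were reached by 8, 22 and 47 of 10729 genes. These are descriptions over 8 means of the same arrays.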

How the data were processed

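Expression was measured on 40 arrays, 5 in each of 8 groups taken from the labels. Per the file headers, the authors deposited the intensity of each probe and 1 minus its detection p-value. Neither background subtraction nor scaling is visible in these intensities; their software is unstated. The authors' deposited value table holds log2 values which, set against the intensities, were quantile-normalised and centred on each probe, and it served as an alternative.

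Intensities were background-corrected, quantile-normalised and put on a log2 scale with neqc of limma 3.58.1 in R 4.3.3 (offset 16). Probes with a detection p under 0.05 on at least 5 of 40 arrays were kept, 20739 of 45281. The platform's probe table gave 1 symbol for 34885 probes and several for 18, and 10378 are not listed there. Each of 10730 genes was represented by its kept probe with the highest mean. A single fit of the 8 groups gave 16 comparisons with moderated statistics and Benjamini-Hochberg adjustment. Figures were drawn with matplotlib 3.10.9 in Python 3.11.15. On simulated data for Malt1-/- minus WT in Th17 cells at 48 h, over 10730 genes, 16% of genes changed by 0.5 on the log2 scale were called, 86% of those changed by 1 and 100% of those changed by 2 or 4, with 6 false calls. Smaller changes can thus be missed. The simulated noise was normal and independent, with 1 spread per gene for all groups. No array closer to another group was simulated, so these shares may not hold for the real arrays.

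The members and the gene lists were chosen with earlier results of these data known. The text names all members and, from each of 8 lists, the genes called between genotypes, at most 4 per list and comparison. The alternatives tried were 12 other settings and the omission of each array in turn. A block for the slide was not fitted.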

Additional observations from a re-analysis of the deposited data

Results flagged for a closer look

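In 3 of 72 combinations of member and group, 1 array lay far from the other 4 of its group, which chance gives in about 1 of 20 groups. Bcl2l11, the gene of BIM, stood at 9.16 in WT Th17 48 h replicate 5 and between 6.80 and 7.37 on the other arrays. Bbc3, the gene of PUMA, stood at 8.96 in WT Th17 72 h replicate 5 and between 8.08 and 8.25 on the others. Pmaip1, the gene of NOXA, stood at 6.99 in Malt1-/- Th1 48 h replicate 2 and between 6.02 and 6.19 on the others. All 3 arrays belong to the 10 whose profiles lie closer to another group.

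For Bcl2l14, a relative of the family, the fitted effect of Malt1 loss at 72 h differed between the lineages (Th17 minus Th1 -1.89, SE 0.37, limma adjusted p = 0.0052). Its probe was detected on 0 of 5 Malt1-/- and 1 of 5 WT Th17 arrays at 72 h, so the Th17 side lies at background, an effect there could not be measured, and the size of the difference has no meaning of its own. With only the arrays of the comparison in the fit the limma adjusted p was 0.099.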

How the results depend on the processing

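No difference of a member reversed its sign while called. The 4 calls between genotypes became 8 with array weights and 12 when the 10 arrays that stand apart from their groups were dropped, and ran from 3 to 9 when each array was left out in turn. The 13 calls between lineages ran from 10 to 15 over the other settings and from 11 to 15 when each array was left out. The 7 calls over time became 1 with only the arrays of each comparison, 11 with array weights, and 6 to 9 with each array left out. The 0 called differences of the Malt1 effect became 1 without background correction, with the authors' value table and with an offset of 50, 2 with array weights, 4 without the 10 arrays, and 0 to 2 with each array left out. The cause of these shifts was not tested. Without the 10 arrays the shares of all genes called also rose, from 3.74% to 11.6% between genotypes and from 7.37% to 18.4% over time. Between lineages the share went from 18.9% to 19.8%, and for differences of the Malt1 effect from 0.259% to 4.83%. No such shares were computed for the other settings, so the counts there are not set against a background. The 4 calls without the 10 arrays were Bcl2 (-1.41), Mcl1 (-1.61) and Bcl2l11 (-1.41) between times in Th17 cells and Pmaip1 between lineages at 72 h (1.65). Median scaling moved the median of all genes by -0.19 to 0.30 between comparisons.

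The labels do not say whether same replicate numbers pair the samples. The median correlation of deviations over 140 same-number pairs was 0.02, with values from -0.36 to 0.48, and over pairs of other numbers it was -0.01. Of 20 genotype pairs of the same number 9 were over 0.1. A median over all pairs cannot show whether part of the design was paired. A replicate block gave 4, 13, 7 and 0 calls and changed no call. A block for the slide was not run, because the headers name no slide. Signal over background limits the kept probes ILMN_1229255 (Bcl2l11) and ILMN_1245289 (Pmaip1) most, detected on 19 and 25 of 40 arrays.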
